A study of Rattus norvegicus with 46 samples.

Results

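The 43 genes described here encode the extracellular matrix of the lung and the receptors, enzymes and cytoskeletal proteins of the cells that make it. They were taken by name from the lung tables, where they stand on 44 of 30045 identifiers (29496 names), because Col1a2 carries the identifiers Col1a2 and Col1a2-2. All 44 passed the filter on low counts in each comparison. By role they are 6 identifiers of fibrillar collagens, 4 of basement membrane collagens, 4 of microfibrillar and fibril-associated collagens, 5 of glycoproteins, 3 of small leucine-rich proteoglycans, 5 of elastic fibre proteins, 5 of crosslinkers and collagen hydroxylases, 2 of matrix proteases, 3 of protease inhibitors, 5 of signalling proteins and receptors, and 2 of cytoskeletal proteins.

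RNA sequencing had been done on lung and blood of aged male Fischer 344 rats, 46 samples in 8 groups, of which the 22 lung samples are used here. Silica rats inhaled crystalline silica (Min-U-Sil 5, a ground quartz dust) at 15 mg/m3 in whole-body chambers, and air rats inhaled filtered air, in both cases 6 hours a day for 5 days. Lungs were taken 1 day after exposure from silica rats (6 libraries) and air rats (6 libraries), and 6 months after exposure from silica rats (6 libraries) and air rats (4 libraries). Libraries of a group that differed by little more than sampling noise were averaged, which left 6 silica and 4 air libraries at 1 day and 5 silica and 2 air libraries at 6 months. Whether each sample is its own animal is not in the labels, so the tests speak only of spread among samples, which may be technical.

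Fibroblasts secrete procollagen chains that are hydroxylated in the cell, assembled into triple helices and, outside the cell, crosslinked by lysyl oxidases into fibrils. Basement membrane collagens form sheets under epithelium and endothelium, and elastin on a fibrillin scaffold gives the alveolar wall its recoil. Matrix metalloproteinases cut these proteins, tissue inhibitors of metalloproteinases block that cutting, and transforming growth factor beta is a main inducer of collagen synthesis. Inhaled crystalline silica is known to cause lung fibrosis (silicosis), in which type I and type III collagen build up in nodules.

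Lung libraries held 13369307 to 24638413 estimated counts over 18853 to 19780 genes. Levels are in CPM, the counts of a gene scaled so that each library has the same total, after correction by the trimmed mean of M values (TMM). CPM is not corrected for gene length, so levels are not compared between genes. Alveolar type 2 markers summed to 25311 to 54448 CPM in silica lungs and 14077 to 24431 CPM in air lungs. The late air libraries stood apart in blood cell markers. Their summed markers of natural killer cells and large granular lymphocytes (10 of 10 found) were 2781 and 3295 CPM, against 309.7 to 980.3 CPM in late silica lungs, 194 to 687 CPM in silica lungs at 1 day and 299.8 to 651 CPM in air lungs at 1 day. Their B cell marker Cd79a and their neutrophil marker Elane were at 0 in both libraries. Neutrophil markers (7 of 7 found) summed to 473 to 730 CPM in silica lungs and 159 to 219 CPM in air lungs at 1 day, and to 713 to 2388 CPM in silica lungs and 67.7 to 85.9 CPM in air lungs at 6 months. Of 12 fibroblast markers that are not among the 43 genes, 10 were found. These were Tcf21, Inmt, Fgf10, Wnt2, Pi16, Mfap5, Ebf1, Scara5, Limch1 and Macf1. Not all of them, Macf1 among the exceptions, are specific to fibroblasts, so their sums are not a measure of fibroblast content. At 1 day they summed to 3001 to 3363 CPM in silica lungs and 3360 to 3609 CPM in air lungs. At 6 months they summed to 1313 to 2863 CPM in silica lungs and 2247 to 3011 CPM in air lungs. Gene by gene, their median log2 fold change of silica over air was -0.05 at 1 day and 0.35 at 6 months. The late sums and the late median thus did not point the same way. These are whole lungs, in which fewer cells of a type and less RNA per cell cannot be told apart, and the part of cell makeup in the results below was not tested.

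**Figure D1:**
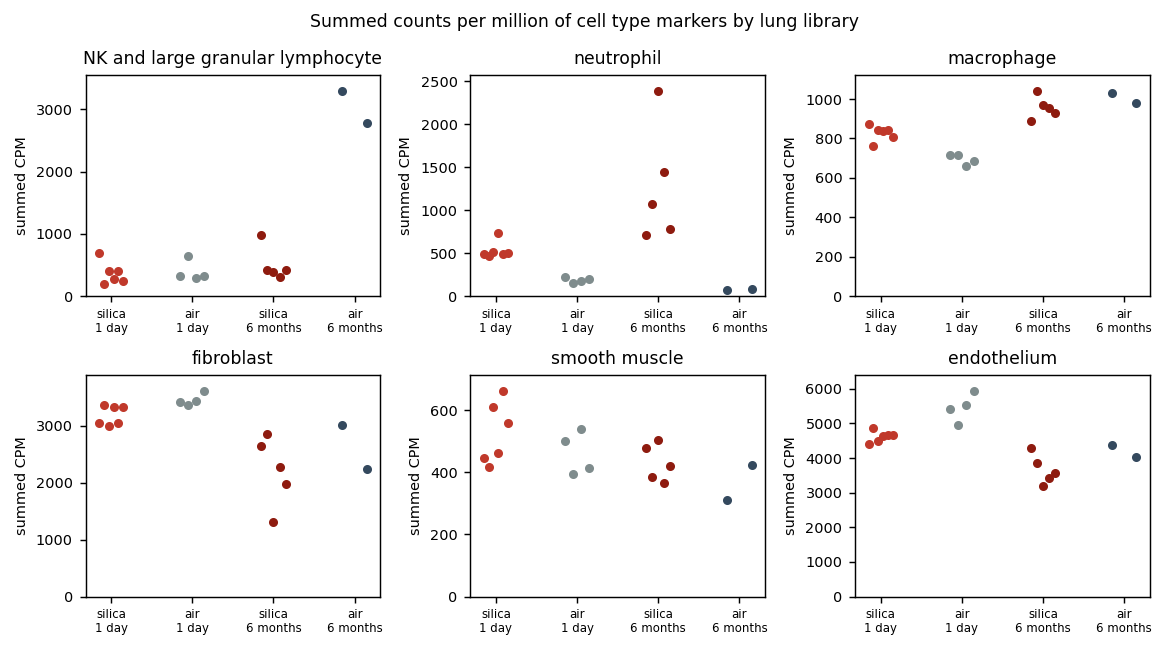
Summed CPM of cell type markers (vertical axes) in each lung library, by group; each point is 1 library. The late air libraries lie at 2781 and 3295 CPM for natural killer and large granular lymphocyte markers and at 67.7 and 85.9 CPM for neutrophil markers.

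At 1 day, 9 of the 44 identifiers (20.5%) rose in silica lungs by edgeR's quasi-likelihood test at an adjusted p under 0.05, against 7.61% of all 15724 genes tested that were higher (11.7% in either direction and 4.07% lower). The 9 were Cthrc1, Tnc, Mmp14, Col15a1, Vim, Fn1, Col1a2-2, Mmp2 and Fbln1. By that test 0 fell and DESeq2 called 10 higher and 0 lower. At an unadjusted p under 0.05, 14 were higher and 1 (Timp2) lower, against 24.5% of all genes in either direction. The changes were small: the median log2 fold change of the 44 was 0.05 beside 0.00 over all genes tested, and only Cthrc1 passed 1.5-fold. The silica and air libraries did not overlap for 5 of the 44, against 11.6% of all genes tested. In the fit of all 4 lung groups only Mmp14 of the 9 passed, and leaving out 1 library at a time left 4 to 7 members higher.

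At 6 months, 4 identifiers rose (Mmp14, Timp1, Timp2 and Col18a1) and 2 fell (Col15a1 and Tgfb1), against 9.51% of 16267 genes higher and 10.1% lower. As a share, the 6 calls are 13.6% of the 44, below the 19.6% called among all genes. The median log2 fold change of the 44 was 0.22 beside -0.00 over all genes, and the silica and air libraries did not overlap for 16 of them, against 45.2% of all genes tested. These calls rest on 2 air libraries that differ from each other: without air library 19-24, 0 members and 56 genes in all passed, and without air library 20-25 the members called were Mmp14, Fbln1 and Dcn, all higher. DESeq2 called 9 members higher and 4 lower. At an unadjusted p under 0.05, 11 were higher and 4 lower, against 34.3% of all genes in either direction.

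**Figure D2:**
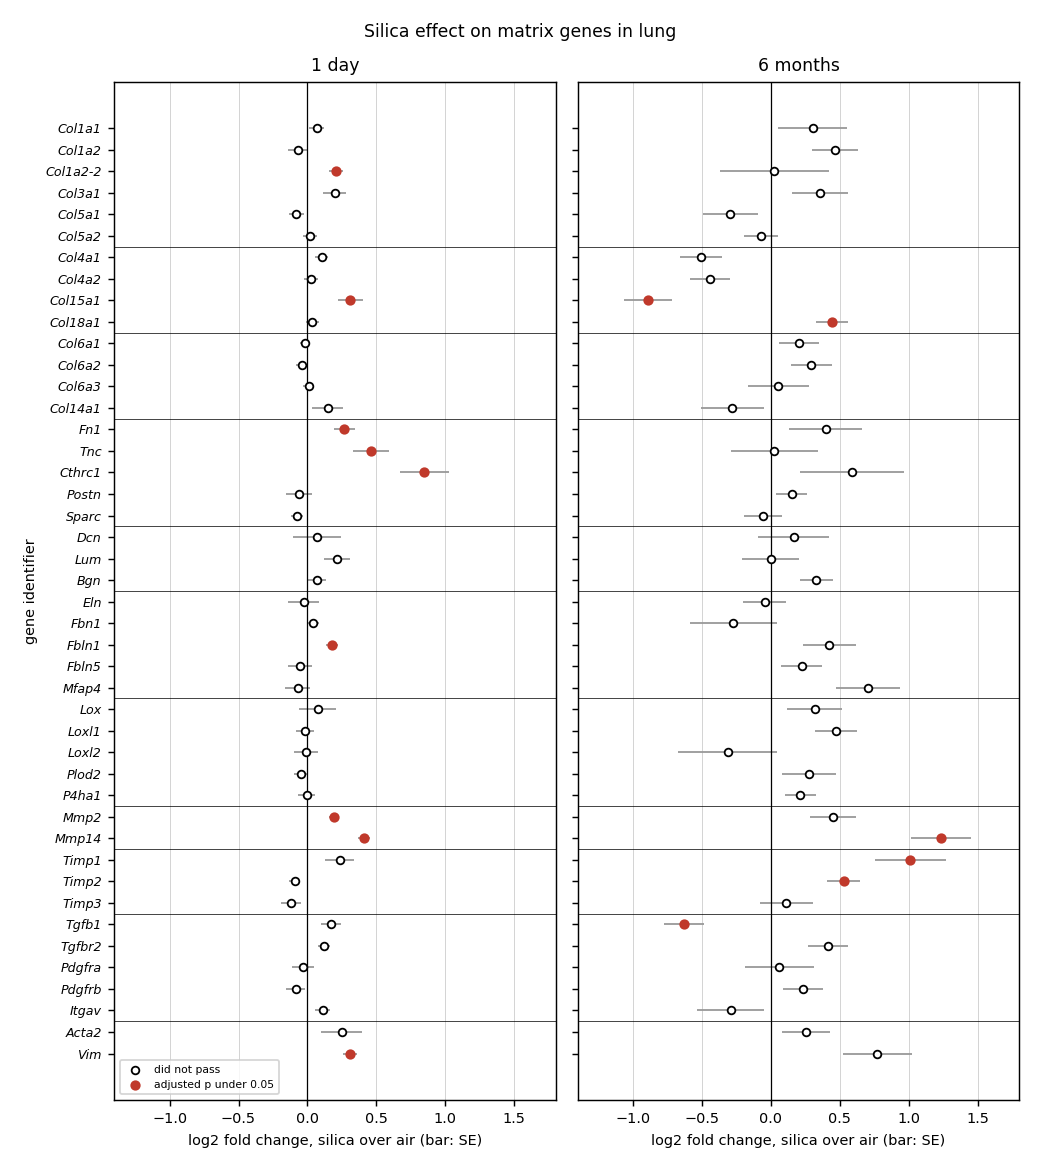
Log2 fold change of silica over air (horizontal axes) for each of the 44 identifiers at 1 day (left) and 6 months (right), with bars of 1 standard error; filled points passed an adjusted p of 0.05. At 1 day 9 points pass, all to the right of 0, and at 6 months 4 pass to the right and 2 to the left, with wider bars.

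By role, the median log2 fold changes at 1 day were 0.04 for fibrillar collagens, 0.07 for basement membrane collagens, -0.03 for elastic fibre genes, -0.01 for crosslinkers and hydroxylases and -0.09 for inhibitors. At 6 months the medians were 0.16 for fibrillar collagens, -0.47 for basement membrane collagens, 0.22 for elastic fibre genes, 0.28 for crosslinkers and hydroxylases and 0.53 for inhibitors. The basement membrane collagens were thus the role with the lowest median at 6 months, and the 2 matrix proteases, at 0.84, had the highest.

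The fibrillar collagens, which form the tensile fibres of scar tissue, gave 1 call at 1 day and 0 at 6 months (DESeq2 1 and 0, and 2 and 1 at an unadjusted p under 0.05). Col1a1, the alpha 1 chain of type I collagen, had a lowest, median and highest level of 146, 158 and 173 CPM in silica lungs at 1 day, against 169, 142, 146 and 149.9 CPM in air lungs. At 6 months its levels were 202, 162, 132, 148 and 171 CPM in silica lungs (libraries 30-31, 32, 33, 34 and 35, the order used throughout), against 94.8 and 175 CPM in air lungs (libraries 19-24 and 20-25, likewise). The groups overlapped at both times, and the late air libraries lay on both sides of most silica libraries. The log2 fold change of Col1a1 was 0.07 ± 0.06 (SE) at 1 day, with an adjusted p of 0.529 in edgeR, and 0.30 ± 0.25 at 6 months, with an adjusted p of 0.442. Without air library 19-24 the late value turned to -0.06, and without 20-25 it was 0.84, neither past the threshold.

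Col3a1, the chain of type III collagen, ranged over 502 to 673 CPM in silica lungs and 481 to 532 CPM in air lungs at 1 day, and over 556 to 671 CPM in silica lungs and 364 to 611 CPM in air lungs at 6 months. Its log2 fold changes of 0.20 ± 0.08 and 0.36 ± 0.20 did not pass. Col5a1 and Col5a2, chains of the type V collagen that sets fibril diameter, had log2 fold changes of -0.08 and 0.02 at 1 day and -0.30 and -0.07 at 6 months, which did not pass either. Col5a1 was at 79.7, 81.8, 47.0, 68.0 and 71.5 CPM in late silica lungs, against 89.0 and 85.3 CPM in late air lungs, so the groups did not overlap.

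Col1a2, the alpha 2 chain of type I collagen, has its reads split between its identifiers, and both had fractional counts in all lung samples, so the level of each is uncertain. At 1 day Col1a2 was at 117, 139 and 152 CPM (lowest, median and highest) in silica lungs, against 153, 135, 140.1 and 142 CPM in air lungs. Col1a2-2 was at 119, 131 and 136 CPM (lowest, median and highest) in silica lungs, against 109, 107, 111 and 124 CPM in air lungs. The identifiers therefore pointed in opposite directions, with a log2 fold change of -0.07 ± 0.07 for Col1a2 (adjusted p 0.613) and 0.21 ± 0.05 for Col1a2-2 (adjusted p 0.0241). That call was lost in 7 of the 10 fits that left out 1 library, and with both identifiers summed 8 of 43 members passed at 1 day. At 6 months Col1a2 was at 149, 143, 180.1, 126 and 160.2 CPM in silica lungs, against 99.1 and 125 CPM in air lungs. These groups did not overlap, with silica higher, and the log2 fold change of 0.46, the highest of the fibrillar collagens, did not pass. Col1a2-2 was then at 124, 119, 42.4, 96.6 and 86.4 CPM in silica lungs, against 69.5 and 118 CPM in air lungs. In silica library 33 the ratio of Col1a2-2 to Col1a2 was 0.235, against 0.539 to 1.17 in the other 16 libraries. With both identifiers summed, levels were 253 to 276 CPM in silica lungs and 241 to 266 CPM in air lungs at 1 day, and 222 to 272 CPM in silica lungs and 169 to 243 CPM in air lungs at 6 months. That library was also the lowest of the late silica group in 21 of the 44 identifiers and the highest in 9.

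The window around the RefSeq start of Col1a2 is shown because its reads are split between 2 identifiers. It runs from 250 bases before the start to 50 after it, at chr4:33518307-33518606 on the plus strand of GRCr8, a newer build than the Rnor_6.0 of the deposited tables. Capitals mark CCAAT on either strand (written ATTGG on the other) and TATAAA on either strand.
Col1a2: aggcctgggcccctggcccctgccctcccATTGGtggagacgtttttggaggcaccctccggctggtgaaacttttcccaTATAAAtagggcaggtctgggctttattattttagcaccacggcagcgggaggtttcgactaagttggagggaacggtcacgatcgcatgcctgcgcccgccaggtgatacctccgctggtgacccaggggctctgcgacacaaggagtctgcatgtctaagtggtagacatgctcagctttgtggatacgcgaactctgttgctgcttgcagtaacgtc
Among the 27 of 43 genes with a RefSeq window, 9 (33.3%) held CCAAT and 4 (14.8%) held TATAAA, against 37.5% and 14.2% of all 33469 rat windows. The motifs do not overlap each other in the windows shown.

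**Figure D3:**
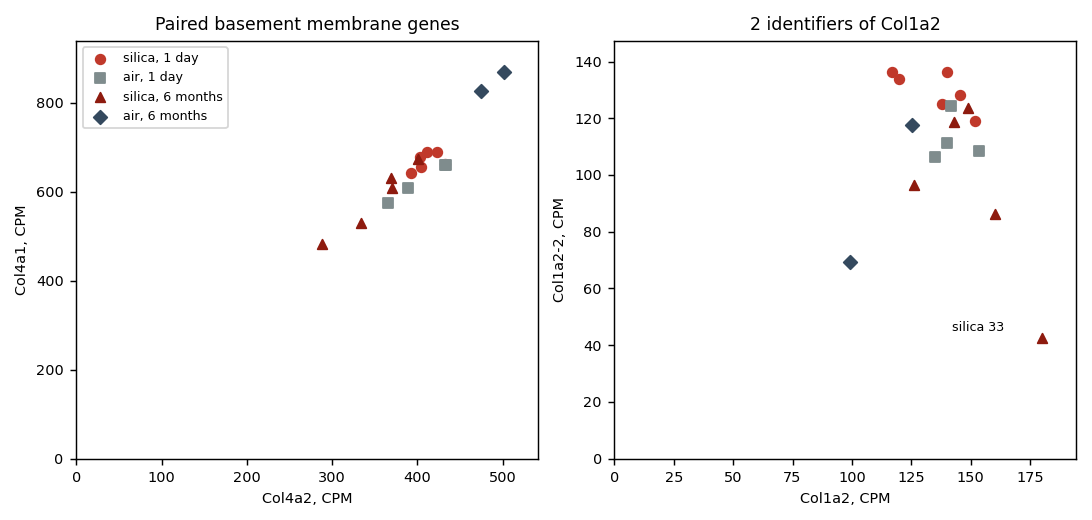
Left, Col4a1 against Col4a2 (CPM) and right, Col1a2-2 against Col1a2 (CPM), in the 17 lung libraries; each point is 1 library and the shape and colour give its group. The Col4 pair has a ratio of 1.52 to 1.74, highest in the late air libraries. Silica library 33 leaves the cloud of the Col1a2 pair at a ratio of 0.235.

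The basement membrane collagens gave 1 call at 1 day, Col15a1 higher, and 2 at 6 months, Col18a1 higher and Col15a1 lower. Col4a1 and Col4a2 are the chains of the common type IV collagen network. Their genes lie head to head, with RefSeq starts 77 bases apart on opposite strands, and the windows around the starts share 176 bases. These are shown in the same way, at chr16:84885347-84885646 on the plus strand for Col4a1 and at chr16:84885471-84885770 on the minus strand for Col4a2, with the same capitals.
Col4a1: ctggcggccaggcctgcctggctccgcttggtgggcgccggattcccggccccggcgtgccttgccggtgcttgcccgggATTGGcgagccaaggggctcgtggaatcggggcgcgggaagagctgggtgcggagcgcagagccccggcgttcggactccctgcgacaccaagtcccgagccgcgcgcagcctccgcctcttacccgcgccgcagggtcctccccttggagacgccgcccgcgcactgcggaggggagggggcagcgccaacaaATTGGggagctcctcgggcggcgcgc
Col4a2: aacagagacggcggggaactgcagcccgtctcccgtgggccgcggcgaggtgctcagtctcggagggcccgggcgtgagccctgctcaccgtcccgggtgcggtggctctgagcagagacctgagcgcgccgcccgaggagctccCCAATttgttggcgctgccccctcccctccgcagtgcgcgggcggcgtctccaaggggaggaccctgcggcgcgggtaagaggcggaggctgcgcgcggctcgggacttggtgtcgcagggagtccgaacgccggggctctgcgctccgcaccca
The Col4a1 window holds 2 matches to CCAAT on either strand and the Col4a2 window 1, in the stretch they share, and neither holds TATAAA.

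Across the 17 libraries the ratio of Col4a1 to Col4a2 counts lay between 1.52 and 1.74, and it was highest in the late air libraries. The ratio was 1.53 to 1.68 in silica lungs and 1.52 to 1.57 in air lungs at 1 day. At 6 months the ratio was 1.59 to 1.71 in silica lungs and 1.73 to 1.74 in air lungs. At 1 day Col4a1 was at 642, 670.4 and 689 CPM (lowest, median and highest) in silica lungs, against 659.9, 574, 607 and 661 CPM in air lungs. At 6 months it was at 673, 632, 482, 607 and 530.1 CPM in silica lungs, against 827 and 869.8 CPM in air lungs. The groups overlapped at 1 day, while every late silica library lay below both late air libraries. Col4a2 had the same order, with 288 to 400.2 CPM in late silica lungs against 475 and 501 CPM in late air lungs. At 6 months the log2 fold changes, -0.51 ± 0.15 for Col4a1 and -0.44 ± 0.14 for Col4a2, missed the threshold in edgeR (adjusted p 0.0527 and 0.0669) and passed it in DESeq2.

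Col15a1 and Col18a1 are multiplexins, collagens that link basement membranes to the matrix beside them, and the end of Col18a1 is released as endostatin. Col15a1, whose counts were fractional in all samples, was at 31.2, 35.7 and 43.4 CPM (lowest, median and highest) in silica lungs at 1 day, against 26.8, 26.4, 33.1 and 30.1 CPM in air lungs. Late levels of Col15a1 were 42.2, 25.7, 35.9, 36.8 and 32.1 CPM in silica lungs, against 69.5 and 61.4 CPM in air lungs. The early groups overlapped, and the late air libraries were above every other lung library. Col15a1 thus rose by 0.31 ± 0.09 at 1 day (adjusted p 0.0436, lost in 8 of the 10 fits that left out 1 library) and fell at 6 months, with a log2 fold change of -0.89 ± 0.18 (adjusted p 0.014). Col18a1 was at 75.8, 74.2, 64.4, 67.5 and 70.7 CPM in late silica lungs, against 49.5 and 56.2 CPM in late air lungs, with no overlap. It rose by 0.44 ± 0.12 (adjusted p 0.0337) at 6 months, and was within 80.002 to 89.7 CPM in silica lungs and 77.7 to 90.6 CPM in air lungs at 1 day. With air lungs of both times as the control, Col15a1 was -0.34 (adjusted p 0.039) and Col18a1 was 0.09 and no longer passed.

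**Figure D4:**
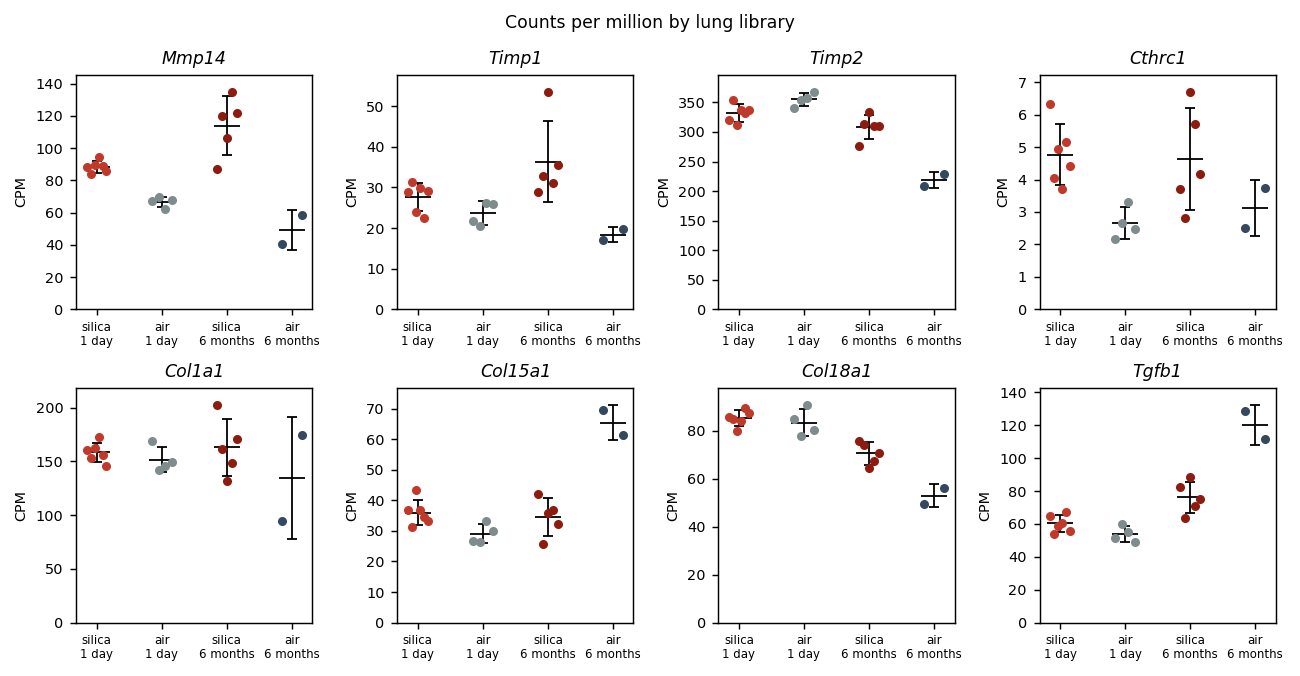
CPM (vertical axes, from 0) of 8 of the genes in each lung library; points are libraries, with the mean and 1 SD. Mmp14 is higher in every silica library than in every air library of the same time, and for Col15a1 and Tgfb1 the late air libraries are the highest of the 17.

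The microfibrillar and fibril-associated collagens gave 0 calls at either time, with 0 at an unadjusted p under 0.05 and 0 by DESeq2. Col6a1, a chain of the beaded filaments of type VI collagen that anchor cells, was at 227, 234 and 239 CPM (lowest, median and highest) in silica lungs at 1 day, against 249.9, 225, 234 and 237 CPM in air lungs. Late levels of Col6a1 were 215, 230.4, 183, 183 and 215 CPM in silica lungs, against 163 and 201 CPM in air lungs, and the groups overlapped at both times. Col6a2, Col6a3 and the fibril-associated Col14a1 had log2 fold changes of -0.04 to 0.15 at 1 day and of -0.28 to 0.29 at 6 months.

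Glycoproteins gave 3 calls of 5 at 1 day, all higher in silica lungs, and 0 at 6 months (0 at an unadjusted p under 0.05 and 0 by DESeq2). Cthrc1, a secreted protein that in mouse marks the collagen-making fibroblasts of fibrotic lung, was at 3.72, 4.69 and 6.32 CPM (lowest, median and highest) in silica lungs at 1 day, against 2.17, 2.66, 3.32 and 2.49 CPM in air lungs. The groups did not overlap, and Cthrc1 rose 1.8-fold (log2 0.85 ± 0.18, adjusted p 0.007), the largest change of the 44 at that time. Late levels of Cthrc1 were 3.72, 2.81, 6.70, 5.72 and 4.18 CPM in silica lungs, against 2.51 and 3.74 CPM in air lungs, with overlap and a log2 fold change of 0.59 ± 0.38.

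Tnc, tenascin C, a matrix protein made at sites of injury, was at 50.0, 60.0 and 77.5 CPM (lowest, median and highest) in silica lungs at 1 day, against 39.8, 53.8, 43.6 and 40.9 CPM in air lungs. It rose by 0.46 ± 0.13 (adjusted p 0.0476), although 1 air library lay within the silica range. Fn1, fibronectin, which binds cells and collagen in the early wound matrix, was at 1286, 1468 and 1612 CPM (lowest, median and highest) in silica lungs at 1 day, against 1259, 1149, 1156 and 1293 CPM in air lungs. It rose by 0.27 ± 0.08 (adjusted p 0.0367), again with overlap. Leaving out 1 library at a time ended the call of Fn1 in 8 of 10 fits and that of Tnc in 7 of 10, and Tnc also lost it under other scalings and without the filter. At 6 months the log2 fold changes were 0.02 ± 0.31 for Tnc and 0.40 ± 0.26 for Fn1. Postn and Sparc, matricellular proteins made by activated fibroblasts, had log2 fold changes of -0.06 and -0.07 at 1 day and 0.15 and -0.06 at 6 months, none past the threshold.

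The small leucine-rich proteoglycans, which coat collagen fibrils, gave 0 calls at either time (1 at each time at an unadjusted p under 0.05, and 0 and 1 by DESeq2). Dcn, decorin, was at 114, 150.2 and 201 CPM (lowest, median and highest) in silica lungs at 1 day, against 162, 136, 156 and 131 CPM in air lungs. Late levels of Dcn were 109, 102, 115, 107 and 123 CPM in silica lungs, against 64.5 and 138 CPM in air lungs, which lay on either side of all silica libraries. Bgn, biglycan, was at 525 to 602 CPM in late silica lungs and 429 to 474 CPM in late air lungs. Its log2 fold change of 0.33 ± 0.12 had an adjusted p of 0.0882 in edgeR and passed in DESeq2. Lum, lumican, had log2 fold changes of 0.21 at 1 day and -0.00 at 6 months.

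The elastic fibre genes gave 1 call at 1 day, Fbln1, and 0 at 6 months (1 at an unadjusted p under 0.05 and 1 by DESeq2, Mfap4 in both). Eln, elastin, was at 217, 249 and 341 CPM (lowest, median and highest) in silica lungs at 1 day, against 279, 249.7, 259.5 and 291 CPM in air lungs, and at 6 months at 363, 371, 315, 335 and 311 CPM in silica lungs, against 302 and 412 CPM in air lungs. The groups overlapped at both times, with log2 fold changes of -0.03 ± 0.11 and -0.05 ± 0.15. Fbln1, fibulin 1, was at 107, 114 and 121 CPM (lowest, median and highest) in silica lungs at 1 day, against 96.6, 102, 98.7 and 106 CPM in air lungs, which did not overlap. It rose by 0.18 ± 0.04 (adjusted p 0.015) and at 6 months had a log2 fold change of 0.42 ± 0.19 that did not pass.

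Mfap4, a microfibril protein that binds elastin and whose counts were fractional in all samples, was at 889.8 to 1188 CPM in silica lungs at 1 day, against 998, 1053, 1215 and 1237 CPM in air lungs. Late levels of Mfap4 were 965, 864, 1360.1, 767 and 1048 CPM in silica lungs, against 580.2 and 674 CPM in air lungs. The late groups did not overlap, yet the log2 fold change of 0.70 ± 0.23 had an adjusted p of 0.0731 in edgeR. Fbn1 and Fbln5, fibrillin 1 and fibulin 5, had log2 fold changes of 0.04 and -0.05 at 1 day and -0.27 and 0.22 at 6 months. Fbn1 was at 45.1 CPM in silica library 33 and at 66.4 to 115 CPM in the other late silica libraries.

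The crosslinkers and collagen hydroxylases gave 0 calls at either time (0 at 1 day and 1 at 6 months at an unadjusted p under 0.05, and 0 and 1 by DESeq2, Loxl1 in both). Lox, the lysyl oxidase that crosslinks collagen and elastin, was at 81.1, 112 and 133 CPM (lowest, median and highest) in silica lungs at 1 day, against 90.3, 99.3, 109 and 119 CPM in air lungs. Late levels of Lox were 111, 103, 72.4, 107 and 79.6 CPM in silica lungs, against 70.5 and 84.8 CPM in air lungs, with overlap and a log2 fold change of 0.32 ± 0.20. Loxl1, which acts on elastin, was at 99.4, 87.8, 91.8, 86.4 and 102 CPM in late silica lungs, against 58.0 and 79.5 CPM in late air lungs. These did not overlap, and the log2 fold change of 0.47 ± 0.15 had an adjusted p of 0.0656. Loxl2 was at 4.27 and 5.83 CPM in silica libraries 33 and 35 and at 9.49 to 11.1 CPM in the other late silica libraries, against 9.93 and 10.98 CPM in late air lungs. Plod2, a lysyl hydroxylase, and P4ha1, a prolyl hydroxylase subunit, had log2 fold changes of -0.04 and -0.01 at 1 day and 0.28 and 0.21 at 6 months.

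Both matrix proteases rose at 1 day, and Mmp14 also at 6 months. Mmp14, a membrane-anchored collagenase that activates the Mmp2 proenzyme, was at 83.7, 88.6 and 94.7 CPM (lowest, median and highest) in silica lungs at 1 day, against 67.1, 69.7, 62.2 and 67.7 CPM in air lungs. Late levels of Mmp14 were 87.1, 119.8, 107, 135 and 122 CPM in silica lungs, against 40.7 and 58.2 CPM in air lungs. Every silica library was above every air library of its time. Mmp14 rose 1.33-fold at 1 day (log2 0.41 ± 0.04, adjusted p 5.67e-05) and 2.35-fold at 6 months (log2 1.23 ± 0.22, adjusted p 0.0108), the largest change of the 44 at 6 months. Without air library 19-24 the late log2 fold change was 1.01 with an adjusted p of 0.126, and with air lungs of both times as the control it was 0.99 with an adjusted p of 7.57e-06.

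Mmp2, gelatinase A, was at 139, 144 and 152 CPM (lowest, median and highest) in silica lungs at 1 day, against 127, 128, 124 and 131 CPM in air lungs, without overlap. It rose by 0.19 ± 0.04 (adjusted p 0.00393). Late levels of Mmp2 were 124, 145, 121, 135 and 145 CPM in silica lungs, against 82.3 and 117 CPM in air lungs, and its log2 fold change of 0.45 ± 0.17 had an adjusted p of 0.098. Neutrophil markers were higher in silica lungs at both times, and their part in these levels was not tested. Of 9 macrophage markers 8 were found. At 1 day they summed to 763 to 873 CPM in silica lungs and 658 to 715 CPM in air lungs. At 6 months they summed to 887 to 1041 CPM in silica lungs and 978 to 1033 CPM in air lungs. Gene by gene, their median log2 fold change was 0.61 at 1 day and 0.83 at 6 months. At 1 day 5 of the 7 tested passed as higher and 0 as lower, against 7.61% and 4.07% of all genes. At 6 months 2 of 8 passed as higher and 1 as lower, against 9.51% and 10.1% of all genes.

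Of the protease inhibitors, 0 of 3 passed at 1 day (2 at an unadjusted p under 0.05, in opposite directions, and 0 by DESeq2) and 2 of 3 rose at 6 months. Timp1, the inducible inhibitor of secreted metalloproteinases, was at 22.6, 29.0 and 31.2 CPM (lowest, median and highest) in silica lungs at 1 day, against 21.7, 20.5, 26.2 and 26.0 CPM in air lungs. Late levels of Timp1 were 28.9, 32.8, 53.5, 30.97 and 35.5 CPM in silica lungs, against 17.1 and 19.7 CPM in air lungs. The early groups overlapped, the late groups did not, and silica library 33 was far above the rest of its group. Timp1 rose 2.02-fold at 6 months (log2 1.01 ± 0.26, adjusted p 0.0327), with a log2 fold change of 0.23 ± 0.10 at 1 day.

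Timp2, which binds Mmp14 in the activation of Mmp2, was at 312, 334 and 355 CPM (lowest, median and highest) in silica lungs at 1 day, against 341, 354, 358 and 368 CPM in air lungs. Late levels of Timp2 were 276, 313, 333, 310.0 and 310.5 CPM in silica lungs, against 209 and 228 CPM in air lungs. The early groups overlapped, and every late silica library was above both late air libraries. Timp2 rose by 0.53 ± 0.12 (adjusted p 0.0233) at 6 months. With air lungs of both times as the control it was at 0.15 with an adjusted p of 0.0636. Timp3, the inhibitor bound to matrix, had log2 fold changes of -0.12 ± 0.07 and 0.11 ± 0.19, neither past the threshold.

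Of the signalling genes, Tgfb1 fell at 6 months, and none of the 5 passed at 1 day (2 at an unadjusted p under 0.05, and DESeq2 called Tgfbr2 higher). Tgfb1, the main fibrogenic growth factor of the lung, was at 54.1, 59.7 and 67.5 CPM (lowest, median and highest) in silica lungs at 1 day, against 51.4, 59.7, 55.1 and 48.7 CPM in air lungs. Late levels of Tgfb1 were 82.4, 63.8, 88.5, 70.8 and 75.0 CPM in silica lungs, against 129 and 112 CPM in air lungs. The late air libraries were above all others, and 4 of the 5 late silica libraries were above every early library. The late log2 fold change of Tgfb1 was -0.63 ± 0.14 (adjusted p 0.0217). With air lungs of both times as the control the value was -0.08 with an adjusted p of 0.536. The late air libraries are also those with the high sum of natural killer and large granular lymphocyte markers, 2781 and 3295 CPM, and the part of these cells in the Tgfb1 level was not tested. Tgfbr2, a receptor of transforming growth factor beta, was at 692 to 869.7 CPM in late silica lungs and 542 to 620.3 CPM in late air lungs, a log2 fold change of 0.42 ± 0.15 with an adjusted p of 0.0876. Pdgfra and Pdgfrb, the platelet-derived growth factor receptors of fibroblasts and pericytes, and Itgav, the integrin chain that helps to release latent transforming growth factor beta, had log2 fold changes of -0.09 to 0.11 at 1 day and -0.29 to 0.23 at 6 months, none past the threshold.

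Vim, vimentin, the intermediate filament of fibroblasts and also of leukocytes and endothelium, was at 1026, 1116 and 1190.4 CPM (lowest, median and highest) in silica lungs at 1 day, against 905, 924, 901 and 872 CPM in air lungs, without overlap. It rose by 0.31 ± 0.05 (adjusted p 0.00111). Late levels of Vim were 991, 1358, 1930.3, 1368 and 1539.8 CPM in silica lungs, against 803 and 915 CPM in air lungs, again without overlap, and its log2 fold change of 0.77 ± 0.25 had an adjusted p of 0.0703. Acta2, the smooth muscle actin of muscle and myofibroblasts, was at 69.6, 80.3 and 107 CPM (lowest, median and highest) in silica lungs at 1 day, against 74.8, 57.2, 86.9 and 67.3 CPM in air lungs. Late levels of Acta2 were 88.0, 62.0, 81.7, 65.9 and 68.3 CPM in silica lungs, against 54.9 and 70.1 CPM in air lungs. The groups overlapped at both times and the log2 fold changes, 0.25 ± 0.15 and 0.25 ± 0.18, did not pass. Smooth muscle markers summed to 416 to 661 CPM in silica lungs and 395 to 539 CPM in air lungs at 1 day.

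**Figure D5:**
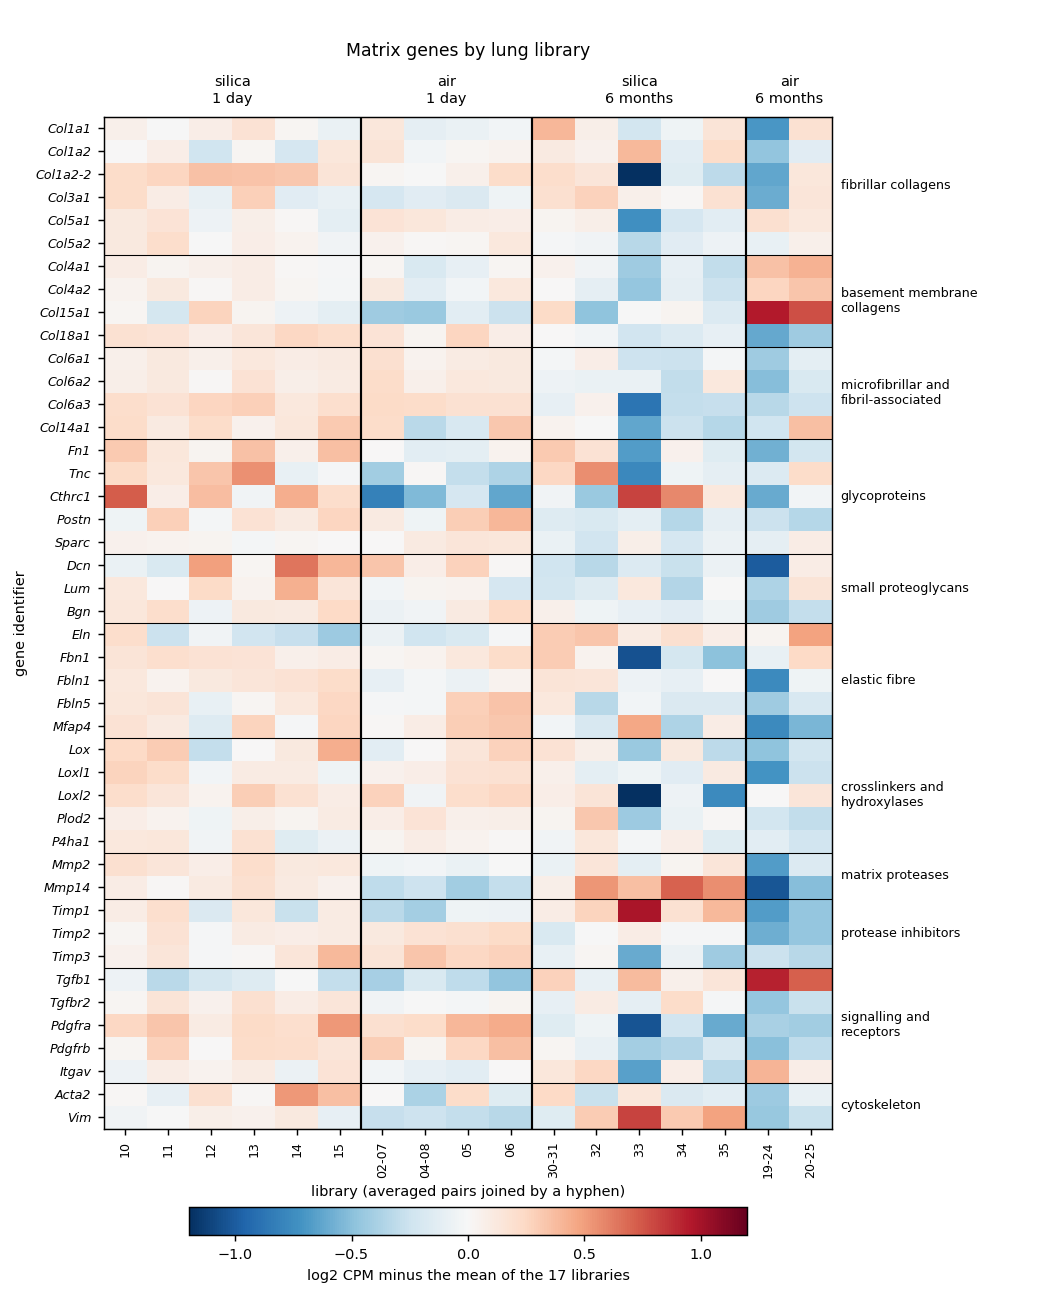
Log2 CPM of each identifier (rows, by role) minus its mean over the 17 libraries, for each lung library (columns, by group); red is above the mean and blue below. Air library 19-24 is blue in most rows, silica library 33 departs from its group in many, and Col4a1, Col4a2, Col15a1 and Tgfb1 are red in both late air libraries.

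The silica effect itself was compared between the times as an interaction, 6 months minus 1 day, in 1 fit of all 4 lung groups. It differed for 11 of the 44 (25%), 7 higher and 4 lower at 6 months, against 26.8% of all genes, of which 12.1% were higher and 14.6% lower. For the basement membrane collagens the difference passed in all 4 identifiers, with Col18a1 higher by 0.38 (adjusted p 0.0128) and with Col15a1 at -1.23 (adjusted p 0.000517), Col4a1 at -0.63 (adjusted p 0.00309) and Col4a2 at -0.49 (adjusted p 0.0118). Among proteases and inhibitors it was higher for Mmp14 (0.80, adjusted p 0.00454), Timp1 (0.75, adjusted p 0.0374) and Timp2 (0.60, adjusted p 0.000669). It was higher for Mfap4 of the elastic fibre (0.75, adjusted p 0.0212) and for the crosslinker Loxl1 (0.46, adjusted p 0.0264), and lower for Tgfb1 (-0.83, adjusted p 0.00126). Among fibrillar collagens it passed for Col1a2 (0.51, adjusted p 0.0317), and with both identifiers summed it did not (0.20, adjusted p 0.328). Col4a1, Col15a1, Timp2 and Tgfb1 passed in each of the 17 fits that left out 1 library. Without air library 19-24, 1 member (Timp2) was higher and 4 were lower, so the calls of Col1a2, Col18a1, Mfap4, Loxl1, Mmp14 and Timp1 were lost, and Timp1 lost its call in 7 of the 17. The change in air lungs enters this difference in full. The median log2 differences by role were -0.56 for basement membrane collagens, 0.01 for fibrillar collagens, 0.22 for elastic fibre genes, 0.22 for crosslinkers and hydroxylases and 0.60 for inhibitors, beside -0.02 over all genes.

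Levels were also compared between the times within each exposure, in the same fit. These contrasts share libraries with those above, and the time and the table a library belongs to cannot be told apart. In silica lungs, 6 months against 1 day, 3 identifiers were higher and 5 lower, against 4.43% and 5.21% of all genes (9.64% in either direction). Pdgfra was at 216, 231, 117, 204 and 157 CPM in silica lungs at 6 months, against 257, 283 and 344 CPM (lowest, median and highest) at 1 day, with a log2 fold change of -0.65 ± 0.14 (adjusted p 0.0103). Col6a3 fell by 0.47 (adjusted p 0.0162), Pdgfrb by 0.35 (adjusted p 0.0207), Postn by 0.31 (adjusted p 0.0322) and Col18a1 by 0.27 (adjusted p 0.011) in silica lungs. Mmp14 (0.37, adjusted p 0.032), Eln (0.36, adjusted p 0.045) and Tgfb1 (0.33, adjusted p 0.0256) rose in silica lungs. Fibroblast markers summed to 1313 to 2863 CPM in silica lungs at 6 months and 3001 to 3363 CPM at 1 day. Pericyte markers (7 of 7 found) summed to 118 to 217 CPM at 6 months and 249 to 274 CPM at 1 day. Both sums were lower at 6 months in air lungs as well. There the fibroblast sums were 2247 to 3011 CPM at 6 months and 3360 to 3609 CPM at 1 day. The pericyte sums were 192 to 196 CPM and 249 to 306 CPM. The part of these cells in the fall of the receptors was not tested.

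In air lungs, 6 months against 1 day, 4 identifiers were higher and 17 lower, against 22.5% and 19% of all genes (41.5% in either direction), and the groups did not overlap for 28 of the 44, against 64.8% of all genes tested. Higher were Col15a1 (1.17, adjusted p 3.42e-05), Tgfb1 (1.16, adjusted p 4.36e-06), Col4a1 (0.44, adjusted p 0.00414) and Eln (0.40, adjusted p 0.0426). The 17 lower were led by Mfap4 (-0.84), Pdgfra (-0.72), Timp2 (-0.70), Col18a1 (-0.66), Pdgfrb (-0.64), Loxl1 (-0.59) and Timp3 (-0.55), with Col6a1, Col6a2, Col6a3, Postn, Bgn, Fbln5, Plod2, Mmp2, Mmp14 and Tgfbr2 at -0.50 to -0.35. The median of the 44 was -0.33 in air lungs and -0.17 in silica lungs, beside -0.01 and -0.00 over all genes. Without air library 19-24, which was the lower of the late pair in most of them, 4 members were higher and 4 lower in air lungs. Tgfb1 passed as higher at 6 months in both exposures, and Pdgfra, Pdgfrb, Col6a3, Postn and Col18a1 passed as lower in both. Mmp14 was higher at 6 months in silica lungs and lower in air lungs. Eln also passed as higher at 6 months in both exposures, and its interaction was -0.04 ± 0.19 (adjusted p 0.892). The call was lost in 11 of 17 fits that left out 1 library in silica lungs and in 5 of 17 in air lungs, and with library totals alone in both. Without air library 20-25 the value for Eln in air lungs was 0.13.

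Other genes of the matrix were taken from lists made by role. At 1 day 16 of 106 rose in silica lungs and 6 fell (20.8% called, against 11.7% of all genes). Of other proteases 4 of 11 rose in silica lungs and 0 fell. Mmp12, the macrophage elastase, averaged 31.9 ± 8.89 CPM in silica lungs and 6.44 ± 3.63 CPM in air lungs (SD, 6 and 4 libraries), a log2 fold change of 2.31 (adjusted p 0.00318). Ctsk, cathepsin K, a collagen-cutting protease of macrophages and osteoclasts, averaged 44.2 ± 6.27 CPM in silica lungs and 20.5 ± 3.29 CPM in air lungs, a log2 fold change of 1.11 (adjusted p 0.000181). Mmp8, the neutrophil collagenase, rose by 0.73. Of other inhibitors 3 of 8 rose and 1 fell, among them Serpina3n (1.46), Serpine2 (0.64) and Reck (-0.22). Of the pathway of transforming growth factor beta 3 of 14 rose, namely Itgb8 (1.2, adjusted p 7.07e-07), which activates the latent factor, the receptor Tgfbr1 (0.40) and the induced gene Tgfbi (0.45). Of other glycoproteins and proteoglycans 2 of 15 rose and 2 fell, with Fmod at 0.45, Spon2 at -0.57 and Ecm1 at -0.22. Of other elastic fibre genes 2 of 11 rose (Emilin2 at 0.68 and Ltbp2 at 0.23), and of collagen maturation genes 2 of 15 rose (P4hb at 0.25 and Colgalt1 at 0.17) and 1 fell (P4ha2 at -0.18). Col13a1 fell by 0.27 and Pdgfa fell by 0.27.

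At 6 months 27 of 108 were higher in silica than in air lungs and 0 were lower. Among all genes 9.51% were higher and 10.1% lower. Below, rose means higher than in air lungs of that time. Of other proteases 5 of 12 rose, with Mmp12 at 90.8 ± 37.8 CPM in silica lungs and 11.1 ± 5.56 CPM in air lungs (SD, 5 and 2 libraries), a log2 fold change of 3.05 (adjusted p 0.0102), and with Mmp8 at 1.77 and Mmp19 at 0.97. Of other inhibitors 4 of 8 rose, with Slpi, the leukocyte protease inhibitor, at 1.84 and Serpine2 at 1.64. Of the pathway of transforming growth factor beta 4 of 14 rose, with Itgb8 at 2.12, Tgfbi at 1.17 and the epithelial integrin Itgb6 at 1.05, in the same lungs in which Tgfb1 was lower than in air lungs. Of other elastic fibre genes 3 of 11 rose (Emilin2 at 1.78, Efemp2 at 1.04 and Emilin1 at 0.89). Of other basement membrane genes 3 of 17 rose, among them Lamb3 (0.89), a laminin chain that epithelium makes, and Col4a6 (0.58). Of other fibrillar and fibril-associated collagens 1 of 6 rose. That was Col16a1, at 205 ± 49.3 CPM in silica lungs and 83.8 ± 7.16 CPM in air lungs (log2 1.32, adjusted p 0.0147). Of other glycoproteins and proteoglycans 3 of 16 rose (Thbs2 at 1.53, Vcan at 1.16 and Fmod at 0.75), and of collagen maturation genes 2 of 15 (Bmp1, the procollagen C-proteinase, at 1.09 and P4ha3 at 0.68). Col13a1 was higher by 0.46 and Pdgfa by 0.63 in late silica than in late air lungs. Col13a1 averaged 171 CPM at 1 day and 141 CPM at 6 months in silica lungs, against 207 and 104 CPM in air lungs. Pdgfa averaged 43.4 and 40.5 CPM in silica lungs, against 52.4 and 26.8 CPM in air lungs. Tgfbi averaged 61.0 and 58.2 CPM in silica lungs, against 44.7 and 26.4 CPM in air lungs. Col16a1, by contrast, averaged 103 and 205 CPM in silica lungs, against 97.9 and 83.8 CPM in air lungs. The late values of these lists rest on the same 2 air libraries as those of the collagens. In air lungs, 6 months against 1 day, 1 of the 108 was higher and 45 (41.7%) were lower. The shares of all genes were 22.5% higher and 19% lower. In silica lungs 9 (8.33%) were higher and 19 (17.6%) lower at 6 months, against 4.43% and 5.21% of all genes. The interaction passed as higher at 6 months for 6 of 11 other elastic fibre genes, 6 of 16 glycoproteins and proteoglycans, 4 of 17 basement membrane genes, 4 of 15 maturation genes and 3 of 12 proteases, and as lower for 0 in each, against 12.1% of all genes higher and 14.6% lower.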

How the data were processed

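Poly(A) RNA of whole lung was sequenced as stranded libraries, per the labels' protocols. The authors deposited estimated counts per gene. Salmon 1.10.1, STAR 2.6.1d, Trim Galore 0.6.7, cutadapt 3.4, bcl2fastq 2.19 and the build Rnor 6.0 are listed, without their roles, in the submitters' processing notes. No source used here gives the annotation release. Counts were rounded to whole numbers. Library pairs of a group in which 7.74 to 9.36% of genes differed at p under 0.05, against 20.9 to 72.5% in the other 46 pairs and 5% from sampling alone, were averaged and counted as 1 library: air 02-07 and 04-08 at 1 day, and air 19-24 and 20-25 and silica 30-31 at 6 months. Genes were filtered with filterByExpr (minimum count 10), scaled by TMM and tested with edgeR 4.0.16 (R 4.3.3) by the quasi-likelihood test with Benjamini-Hochberg adjustment over all genes at 0.05, within each time, and in 1 fit of 4 groups for the interaction and the times. CPM come from that fit. SE are the log2 fold change over the root of F. The floor of 3 counts is 0.122 to 0.224 CPM. Alternatives were DESeq2 1.42.0, other scalings, filters, fits and controls, and leaving out each library; summing the Col1a2 identifiers was added after seeing the data. The test was also run on counts simulated gene by gene, which hold no shift of a whole library or between tables. Its outcome is not given here. All 43 genes are named, and other genes are those of the role lists that passed, with up to 3 per list given; 2 of them are not reported here. The members and lists were chosen with earlier results of these data known. Promoter windows are from RefSeq (GRCr8). Blood samples were not used here.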

Additional observations from a re-analysis of the deposited data

Results flagged for a closer look

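In late silica lungs, Timp1 of library 33 lay far from its group, at 53.5 CPM against 28.9 to 35.5 CPM in the others. In silica lungs at 1 day, Timp3 of library 15 lay far from its group, at 1449 CPM against 1099.8 to 1229 CPM in the others. These are 2 of 132 such tests, and chance passes about 1 in 20.

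The silica effect differed between 6 months and 1 day, by the edgeR interaction test, for 11 identifiers. It was higher at 6 months for Mmp14 (0.80 on the log2 scale), Timp1 (0.75), Mfap4 (0.75), Timp2 (0.60), Col1a2 (0.51), Loxl1 (0.46) and Col18a1 (0.38). It was lower at 6 months for Col15a1 (-1.23), Tgfb1 (-0.83), Col4a1 (-0.63) and Col4a2 (-0.49).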

How the results depend on the processing

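No member changed sign in a called value under any alternative run. Values that were not called did change sign at 6 months when an air library was left out. Without 19-24 these were Col1a1, Col1a2-2, Tnc and Dcn, and without 20-25 Col5a2, Col14a1, Sparc, Lum and Eln. At 1 day, a 1.5-fold minimum left 1 member higher and 415 genes called, and all 4 groups in 1 fit left 1 member higher and 594 genes. At 6 months, a 1.5-fold minimum left 2 members higher, DESeq2 called 9 higher and 4 lower, separate libraries 14 higher and 4 lower with 6396 genes, the fit of 4 groups 13 higher and 4 lower with 6499 genes, and air lungs of both times as the control 6 higher and 4 lower with a median of 0.051. For the interaction, a 1.5-fold minimum left 4 higher and separate libraries gave 11 higher. For silica lungs across times, a 1.5-fold minimum left 0 higher, 1 lower and 543 genes, library totals alone gave 1 higher, and DESeq2 gave 5 higher and 2591 genes. For air lungs across times, a 1.5-fold minimum left 2 higher, 6 lower and 4113 genes. The cause was not tested. Leaving out each library in turn gave 4 to 7 members higher, 0 to 1 lower, medians of 0.02 to 0.06 and 1188 to 2240 genes at 1 day (10 fits). At 6 months it gave 0 to 8 higher, 0 to 4 lower, medians of 0.11 to 0.38 and 56 to 4171 genes (7 fits); the lowest is without air library 19-24 and the highest without silica library 33. The 17 fits of 4 groups gave 1 to 12 higher, 3 to 4 lower, medians of -0.040 to 0.28 and 1642 to 5570 genes for the interaction; 0 to 5 higher, 3 to 10 lower, medians of -0.19 to -0.13 and 766 to 2998 genes for silica lungs; and 2 to 6 higher, 4 to 21 lower, medians of -0.50 to -0.10 and 3643 to 8454 genes for air lungs. A lone late air library is assumed to vary like the silica libraries. At 1 day Cthrc1, Mmp2, Mmp14 and Vim passed in all 10 fits, while Fn1 and Col15a1 lost their call in 8, Tnc and Col1a2-2 in 7 and Fbln1 in 2. No paired analysis was possible because the lung groups compared share no replicate numbers.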
